A study of Homo sapiens with 12 samples.

Results

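The averaged effect of GSK343 was measured over both drug backgrounds of a 4-group experiment in A375, a human melanoma cell line that carries mutant BRAF. It is the mean of 2 differences: 1 µM GSK343 against DMSO, the solvent, and 1 µM GSK343 with 1 µM XL413 against 1 µM XL413 alone, all after 24 h. It therefore sets the 6 libraries with GSK343 against the 6 without it, with XL413 balanced between them, and it uses all 12 of the 12 libraries of the study. Per the labels each of the 4 groups (GSK343, GSK343+XL413, DMSO and XL413) had 3 biological replicates, and poly-A RNA was sequenced with strand information. All cells are of 1 line. The members were chosen by these labels and by no measured value.

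GSK343 is an inhibitor of EZH2, the catalytic subunit of Polycomb repressive complex 2, which places the repressive trimethyl mark on a lysine of histone H3 at silenced genes, many of them developmental regulators. XL413 inhibits the kinase CDC7, which works with DBF4 to activate the MCM helicase at licensed replication origins. Most genes described below belong to pathways with a known sensor. SREBP2, the protein of SREBF2, is held in the endoplasmic reticulum by SCAP and INSIG1 when sterols are plentiful and turns on cholesterol synthesis genes when they are not, while the liver X receptors turn on efflux genes such as ABCA1 and ABCG1 when oxysterols are plentiful. HSF1 drives cytosolic chaperone genes, and ATF4 drives genes of amino acid synthesis, transport and tRNA charging.

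Total expected counts, the estimated reads per library, ran from 31553205 to 39079931, and 18175 to 18488 genes had a count in a library. Of 26475 genes in the table, 15443 passed the filter on low counts and were tested, and 11032 did not. GSK343+XL413 replicate 2 stood apart. The SD of its deviation from its group over 12364 genes was 0.277 on the log2 scale, against 0.134 to 0.178 in the other libraries, and longer genes lay lower in it (rho of deviation and length -0.641, against -0.448 to 0.566 in the others, by Spearman across genes, which are not independent replicates). List counts are therefore also given without it where they moved, and every called gene named below kept its sign without it and, except HIST1H1C and LUM, its call. Among melanoma cell markers SOX10, S100A1, S100B, MITF and PMEL passed the filter, while MLANA, DCT and TYR did not, and TYR was at 0 in every library. The summed level of the list ran from 395 to 427 CPM with GSK343 and from 416 to 458 CPM without it. CPM are counts scaled to the same library size by TMM and are not divided by gene length, so levels are compared between libraries and not between genes.

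GSK343 was followed by small changes in many genes. Of 21 cholesterol synthesis genes 16 were higher, and so were SQSTM1, the stromelysin gene MMP3 and the prostaglandin synthase gene PTGES. Of the tested genes, 10 of 18 heat shock, 13 of 29 ATF4, 9 of 20 tRNA synthetase and 7 of 23 MCM and licensing genes were lower, while EZH2 itself, HOX genes and other Polycomb-target developmental regulators gave no call. In edgeR's quasi-likelihood test with Benjamini-Hochberg adjustment over all tested genes, which gives every adjusted p below, 1012 of 15443 genes were called at an adjusted p under 0.05 (6.55%), 491 of them higher with GSK343 (3.18%) and 521 lower (3.37%). Without GSK343+XL413 replicate 2, 2009 of 15584 genes were called (12.9%), 879 higher (5.64%) and 1130 lower (7.25%); of the 1012 genes, 995 were among them, 17 were not, and 0 changed sign. The count for the averaged GSK343 effect also moved by over 1.5 times when other libraries were left out. It was 525 and 671 without GSK343 replicates 1 and 2, 566, 479 and 555 without DMSO replicates 1, 2 and 3 in turn, and 448, 507 and 639 without XL413 replicates 1, 2 and 3.

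The changes were small. The median called gene differed by 1.14-fold, 48 called genes differed by at least 1.5-fold, and of these 45 were higher and 3 lower. Called genes that were higher had a median log2 fold change of 0.26 and those that were lower -0.15, against 0.0041 over all tested genes. When the test asked for a change of more than 1.2-fold, 23 genes passed and all 23 were higher. The direction of the calls followed the level of the gene. Among 3050 genes under a mean of 1 log2 CPM, 51 were called higher and 3 lower, among 6282 genes from 1 to 5 log2 CPM 313 were higher and 78 lower, and among 6111 genes over 5 log2 CPM 127 were higher and 440 lower. Without GSK343+XL413 replicate 2 the 3 classes had 58, 521 and 298 higher and 5, 158 and 967 lower genes. The balance of the calls for the averaged GSK343 effect also moved with the scaling. Higher genes made up 48.5% of all calls here, but 70.0% with upper quartile scaling (678 higher, 290 lower) and 62.3% after a correction of each library for GC content and transcript length (1024 higher, 621 lower).

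**Figure D1:**
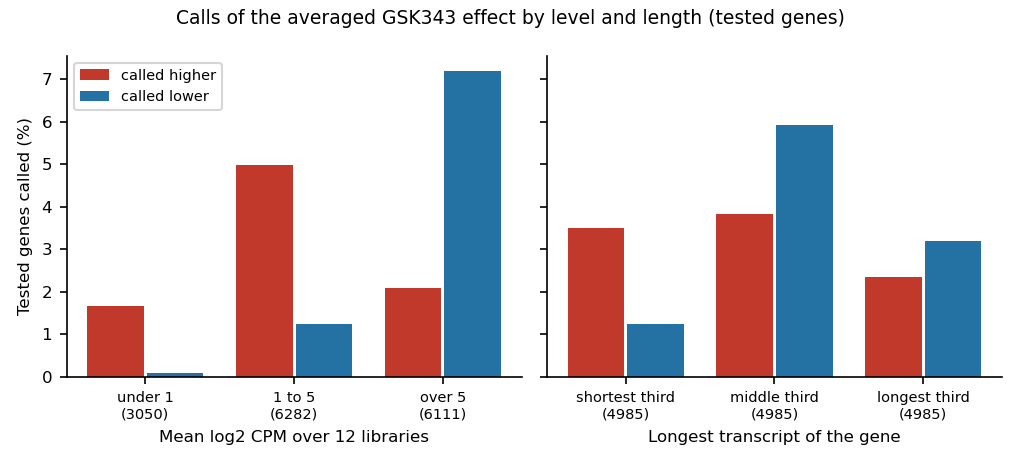
Share of tested genes called under the averaged GSK343 effect (percent, vertical axes) by mean level over the 12 libraries (left, log2 CPM) and by length of the longest transcript (right), with the number of tested genes under each class. Red bars are genes higher with GSK343 and blue bars genes lower; over 5 log2 CPM 440 genes were lower and 127 higher, while under 1 log2 CPM 51 were higher and 3 lower.

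By transcript length, the shortest of 3 equal classes of tested genes had 175 higher and 62 lower calls, the middle class 191 and 295, and the longest class 117 and 159. Without GSK343+XL413 replicate 2 these were 207 and 263, 293 and 510, and 367 and 351, with no surplus of higher calls among short genes. Whether its length trend accounts for calls among short genes was not tested.

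The differences behind the average mostly pointed the same way. They share no library but do share the estimate of spread. GSK343 against DMSO gave 180 calls (1.17%), 112 higher (0.725%) and 68 lower (0.44%). GSK343+XL413 against XL413 gave 121 calls (0.784%), 86 higher (0.557%) and 35 lower (0.227%). With GSK343+XL413 replicate 2 left out, GSK343 against DMSO gave 958 calls (6.15%), 399 higher (2.56%) and 559 lower (3.59%), although that library is not in this contrast. GSK343+XL413 against XL413 then gave 252 calls (1.62%), 129 higher (0.828%) and 123 lower (0.789%). Of the 180 genes, 177 had the same sign in the other background, and of the 121 genes 119 did, against 66.6% of all tested genes. All 1012 genes called in the average had the same sign in both backgrounds. They were chosen by the average of these same differences, which favours equal signs, so this is no separate sign of agreement. Of them 78 were called in each background, and 794 were called in neither and passed the threshold through the average alone. The genes called against DMSO had a median size of 0.30 there and of 0.21, taken along the same direction, against XL413. Those called against XL413 had 0.33 there and 0.29 against DMSO. Each set was chosen by its call in the first comparison, which favours a smaller size in the other, so no weaker effect is read from this. Across tested genes the log2 fold changes of the backgrounds had a Pearson r of 0.20 and a Spearman rho of 0.43, as a description. The test of the difference between backgrounds called 0 genes in edgeR (413 at an unadjusted p under 0.05) and 2 in DESeq2. Libraries did not overlap in either background, with all 3 beyond all 3, for 539 genes that were higher (3.49%) and for 809 that were lower (5.24%). All 6 libraries with GSK343 lay beyond all 6 without it for 282 higher (1.83%) and 335 lower genes (2.17%).

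**Figure D2:**
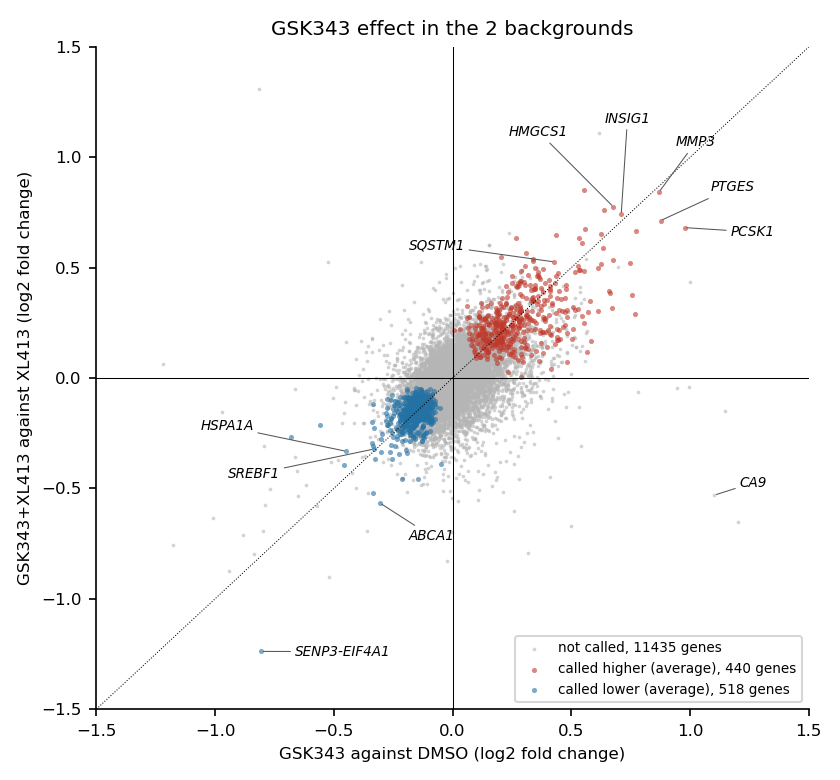
Log2 fold change of GSK343 against DMSO (horizontal axis) and of GSK343+XL413 against XL413 (vertical axis) for genes with a mean of at least 1 log2 CPM, with the line of equal change dotted; 2 genes lie outside the axes. The 440 red and 518 blue genes, called higher and lower in the average, lie in the quadrants where both backgrounds have the same sign. Their choice by the average favours this. CA9 lies where the signs differ.

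GSK343 acts on the EZH2 protein, and an inhibitor need not change the mRNA of its target. EZH2 had 90.2, 86.3 and 88.9 CPM in the GSK343 libraries, against 94.2, 101 and 95.4 CPM in the DMSO libraries. It had 88.1, 88.4 and 85.7 CPM in the GSK343+XL413 libraries, against 92.97, 87.7 and 90.8 CPM in the XL413 libraries. The GSK343 libraries lay below all DMSO libraries, while the GSK343+XL413 libraries overlapped those with XL413. Its average was -0.09 ± 0.029 (SE; adjusted p = 0.0838), or 0.939-fold (95% confidence interval 0.896 to 0.984), not called with all libraries and called without GSK343+XL413 replicate 2 (adjusted p = 0.034). EZH1, the other catalytic subunit of the complex, averaged -0.02 ± 0.038, adjusted p = 0.825. EED, the subunit that reads the mark, averaged -0.04 ± 0.041, adjusted p = 0.552, and SUZ12, the core scaffold, averaged -0.04 ± 0.038, adjusted p = 0.516. For the kinase that XL413 inhibits, CDC7 averaged 0.11 ± 0.039, adjusted p = 0.129 (adjusted p = 0.0489 without GSK343+XL413 replicate 2), and its partner DBF4 averaged 0.04 ± 0.031, adjusted p = 0.427.

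Among 21 tested Polycomb complex genes, 2 were called lower and 0 higher, against 3.37% of all tested genes lower. The counts were 3 lower with DESeq2 and with RLE scaling, 0 with upper quartile scaling, and 3 lower and 1 higher with the GC and length correction. The called members were MTF2 and PHF19, accessory proteins that guide the complex to chromatin, with averages of -0.13 ± 0.032 (SE; adjusted p = 0.033) and -0.10 ± 0.025 (SE; adjusted p = 0.0354). MTF2 lost its call without GSK343 replicates 1 and 2, GSK343+XL413 replicate 1, DMSO replicates 2 and 3 or XL413 replicates 1, 2 and 3 (largest adjusted p 0.0811), and its adjusted p was 0.0802 with upper quartile scaling. PHF19 lost its call without GSK343 replicates 1 and 3, GSK343+XL413 replicate 3, DMSO replicates 1 and 2 or XL413 replicates 1, 2 and 3 (largest adjusted p 0.0881), and its adjusted p was 0.112 with upper quartile scaling and 0.501 with the GC and length correction. Without GSK343+XL413 replicate 2 the list had 4 lower and 1 higher. HOX genes, classical targets of Polycomb repression, had 0 calls among 36 tested of 39, with a median of -0.0005 (0.02 with upper quartile scaling) and 18 estimates above 0; with the GC and length correction 1 was higher and 1 lower. The most abundant, HOXC10, had 42.5 to 46.8 CPM (median 43.8) in the 6 libraries with GSK343, against 44.6 to 46.3 CPM (median 45.8) in the 6 without. HOXB2 had 34.2 to 47.9 CPM (median 39.4) in the 6 libraries with GSK343, against 39.98 to 46.1 CPM (median 42.9) in the 6 without. Neither differed past the threshold (averages -0.04 ± 0.027, adjusted p = 0.4 for HOXC10 and -0.12 ± 0.052, adjusted p = 0.207 for HOXB2), although HOXB2 was called without GSK343+XL413 replicate 2 (adjusted p = 0.0183). The other Polycomb-target developmental regulators had 0 calls among 53 tested of 77, with a median of -0.02 (0.01 with upper quartile scaling) and 21 estimates above 0. Without GSK343+XL413 replicate 2 they had 1 higher and 2 lower, and with the GC and length correction 1 higher and 0 lower. Their most abundant members were TBX3 (0.07 ± 0.040, adjusted p = 0.34) and DLX1 (0.01 ± 0.036, adjusted p = 0.884), transcription factors of limb and forebrain development. TBX3 passed without GSK343+XL413 replicate 2 (adjusted p = 0.0267).

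Cholesterol synthesis was the pathway list with the largest share of calls. All gene lists, also those below, were chosen with earlier results of these data known, so their shares of calls are no separate support. Of 21 enzymes, all 21 tested, 16 rose with GSK343, 0 fell and 5 gave no call, against 3.18% of all tested genes called higher. The count was 16 of 21 without GSK343+XL413 replicate 2 and moved by less than 1.5 times without any other library. All 21 estimates were above 0, and the median log2 fold change was 0.30 against 0.0041 over all tested genes. In 16 members the libraries with GSK343 lay above those without it in each background, against 3.49% of all tested genes. In the comparison with DMSO 11 members were called higher (0.725% of all tested genes were), and in that with XL413 15 (0.557% of all tested genes).

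The first steps make mevalonate. HMGCS1, the synthase that makes HMG-CoA, had 68.2, 64.9 and 67.04 CPM in the GSK343 libraries, against 41.9, 40.3 and 43.1 CPM in the DMSO libraries. It had 68.1, 67.1 and 71.2 CPM in the GSK343+XL413 libraries, against 41.5, 39.3 and 39.7 CPM in the XL413 libraries. All 6 libraries with GSK343 lay above all 6 without it. The average was 0.73 ± 0.031 (SE; adjusted p = 6.95e-08), or 1.66-fold (95% confidence interval 1.57 to 1.74). Among the next steps, MVK, the kinase of mevalonate, averaged 0.30 ± 0.038, adjusted p = 0.000725, MVD, the decarboxylase, 0.36 ± 0.043, adjusted p = 0.000457, and IDI1, the isomerase of the isoprenoid unit, 0.37 ± 0.039, adjusted p = 0.000133. ACAT2, the cytosolic thiolase that feeds HMGCS1, averaged 0.16 ± 0.030, adjusted p = 0.00798. FDPS, which makes farnesyl diphosphate, did not pass (0.10 ± 0.035, adjusted p = 0.111).

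The later enzymes turn farnesyl diphosphate into squalene and cholesterol. SQLE, the squalene epoxidase, had 46.05, 47.7 and 48.3 CPM in the GSK343 libraries, against 37.6, 37.3 and 36.9 CPM in the DMSO libraries. It had 46.1, 45.9 and 49.3 CPM in the GSK343+XL413 libraries, against 33.5, 32.7 and 33.6 CPM in the XL413 libraries. It was higher in every library with GSK343 than in every library without it, by 1.34-fold (95% confidence interval 1.28 to 1.41), with an average of 0.42 ± 0.030 (SE; adjusted p = 6.59e-06). FDFT1, the squalene synthase, had 142 to 172 CPM (median 149) in the 6 libraries with GSK343, against 110.4 to 118 CPM (median 114) in the 6 without. It averaged 0.41 ± 0.031 (SE; adjusted p = 7.38e-06). MSMO1, which removes methyl groups from the sterol ring, had 19.5 to 22.6 CPM (median 20.5) in the 6 libraries with GSK343, against 12.6 to 14.3 CPM (median 13.6) in the 6 without and, at 0.61 ± 0.047 (SE; adjusted p = 7.38e-06), the largest log2 fold change among the enzymes after squalene. DHCR7, which makes cholesterol from its last precursor, had 68.6 to 79.1 CPM (median 74.5) in the 6 libraries with GSK343, against 50.7 to 60.5 CPM (median 54.3) in the 6 without. In none of FDFT1, MSMO1 and DHCR7 did the libraries overlap, and DHCR7 averaged 0.43 ± 0.032 (SE; adjusted p = 7.38e-06). Other called members had averages of 0.20 ± 0.031, adjusted p = 0.00268 for LSS, the cyclase that forms the sterol ring, 0.28 ± 0.034, adjusted p = 0.000499 for CYP51A1, 0.19 ± 0.040, adjusted p = 0.0143 for NSDHL, 0.44 ± 0.052, adjusted p = 0.00046 for HSD17B7 and 0.36 ± 0.033, adjusted p = 3.13e-05 for SC5D, which act on the ring after it. These values were read from the list with its results known.

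Genes that sense or move sterols split in direction. Of 16 tested of 18, 3 were called higher and 3 lower, against 3.18% and 3.37% of all tested genes (4 and 4 without GSK343+XL413 replicate 2, and 4 and 2 with upper quartile scaling). SREBF2, which encodes SREBP2, had 104, 111 and 106 CPM in the GSK343 libraries, against 81.3, 81.3 and 80.4 CPM in the DMSO libraries. It had 107, 87.9 and 105 CPM in the GSK343+XL413 libraries, against 78.4, 77.2 and 78.8 CPM in the XL413 libraries. It was higher in both backgrounds, GSK343+XL413 replicate 2 was the lowest of the 6, and the average was 0.38 ± 0.044 (SE; adjusted p = 0.000372). INSIG1, the sterol-dependent anchor of the SREBP proteins, had 26.5, 24.4 and 22.8 CPM in the GSK343 libraries, against 14.7, 15.03 and 15.3 CPM in the DMSO libraries. It had 22.7, 25.1 and 22.7 CPM in the GSK343+XL413 libraries, against 14.96, 13.5 and 13.8 CPM in the XL413 libraries. No library of either kind overlapped, and the average was 0.73 ± 0.048 (SE; adjusted p = 5.79e-06). STARD4, a cytosolic cholesterol carrier, had 12.3 to 14.5 CPM (median 13.7) in the 6 libraries with GSK343, against 7.44 to 9.396 CPM (median 8.28) in the 6 without. It averaged 0.70 ± 0.066 (SE; adjusted p = 4.82e-05).

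The efflux genes ABCA1 and ABCG1 were lower. ABCA1, the transporter that loads cholesterol onto apolipoprotein A-I, had 4.99, 7.28 and 7.04 CPM in the GSK343 libraries, against 7.57, 7.82 and 8.52 CPM in the DMSO libraries. It had 5.08, 4.25 and 5.13 CPM in the GSK343+XL413 libraries, against 6.42, 7.31 and 7.65 CPM in the XL413 libraries. The libraries did not overlap in either background, though they overlapped across the backgrounds, and the average was -0.44 ± 0.095 (SE; adjusted p = 0.0176). ABCG1, its partner for high-density lipoprotein, was low, with 0.201 to 0.454 CPM (median 0.286) in the 6 libraries with GSK343, against 0.515 to 0.700 CPM (median 0.568) in the 6 without. Its average was -1.0 ± 0.21 (SE; adjusted p = 0.0139). MYLIP, a ubiquitin ligase that like ABCA1 and ABCG1 is a liver X receptor target, had 7.96 to 10.1 CPM (median 9.45) in the 6 libraries with GSK343, against 9.42 to 11.8 CPM (median 10.6) in the 6 without and did not pass (average -0.19 ± 0.067, adjusted p = 0.104). The third called member that was lower was LPCAT3, a phospholipid acyltransferase, with -0.13 ± 0.034, adjusted p = 0.0364; it lost its call without GSK343 replicates 1 and 2, DMSO replicates 1, 2 and 3 or XL413 replicates 1, 2 and 3 (largest adjusted p 0.0917).

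**Figure D3:**
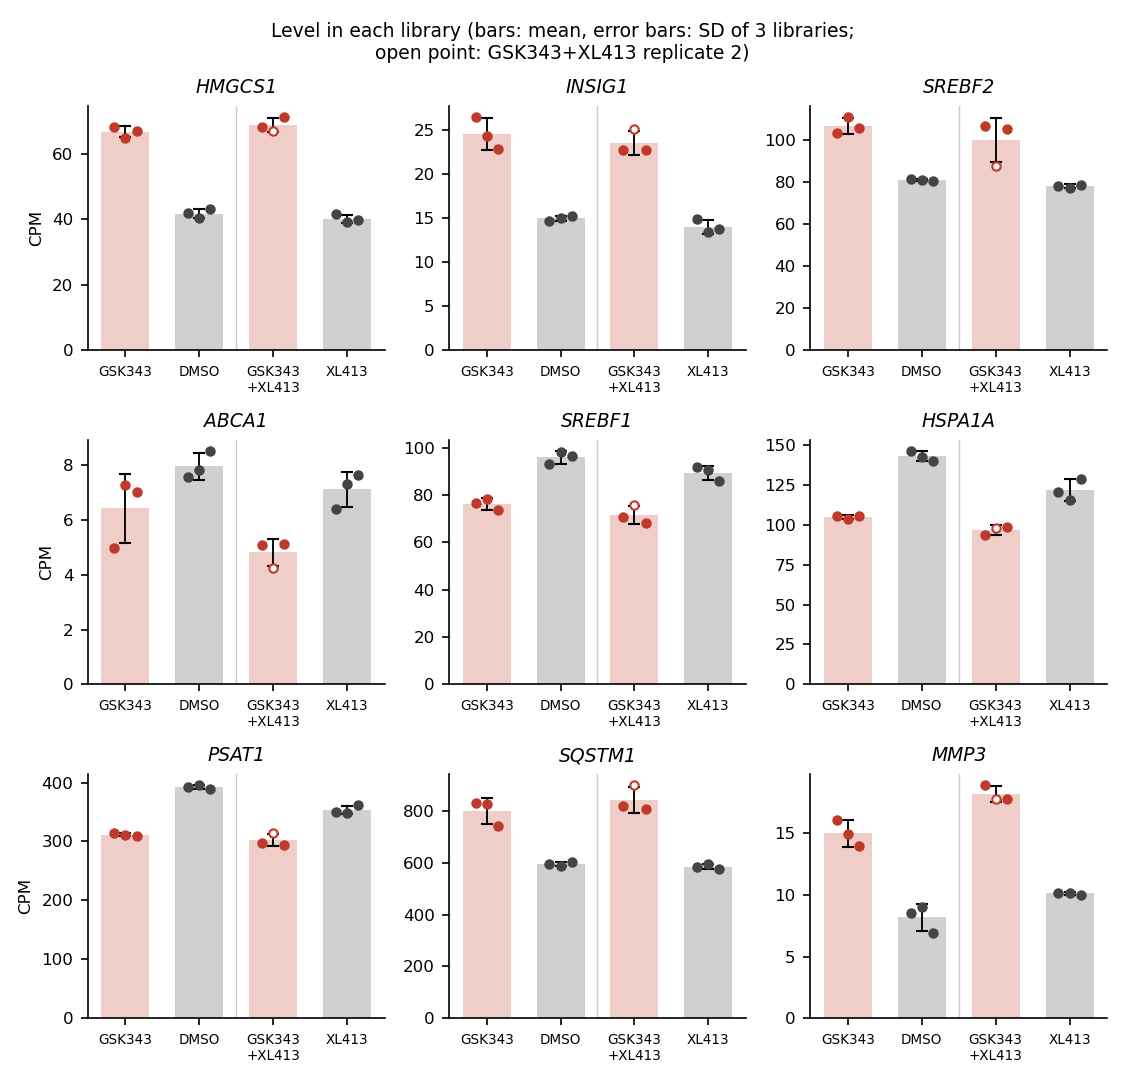
Level (CPM, linear axes from 0) of 9 genes in each library; bars are means and error bars SDs of 3 libraries, each group with GSK343 stands left of the group without it, and the open point is GSK343+XL413 replicate 2. HMGCS1, INSIG1, SREBF2, SQSTM1 and MMP3 are higher in every library with GSK343 than in every library without it, SREBF1, HSPA1A and PSAT1 are lower in every one, and ABCA1 overlaps across the backgrounds.

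Fatty acid synthesis, which is driven mainly by SREBF1, had calls in both directions. Of 14 tested genes of 16, 2 were called higher and 1 lower, against 3.18% and 3.37% of all tested genes (4 and 1 without GSK343+XL413 replicate 2, 6 and 1 with the GC and length correction, 1 and 1 with DESeq2). SREBF1 itself was the one that fell, with 76.6, 78.4 and 73.8 CPM in the GSK343 libraries, against 93.1, 98.4 and 96.4 CPM in the DMSO libraries. It had 70.7, 75.9 and 68.2 CPM in the GSK343+XL413 libraries, against 91.7, 90.8 and 86.1 CPM in the XL413 libraries. Every library with GSK343 lay below every library without it, and the average was -0.33 ± 0.034 (SE; adjusted p = 0.000133), or 0.797-fold (95% confidence interval 0.755 to 0.842). SCD, the stearoyl-CoA desaturase, had 235 to 286 CPM (median 270.0) in the 6 libraries with GSK343, against 209 to 234 CPM (median 225) in the 6 without and rose by 1.19-fold (95% confidence interval 1.13 to 1.25), with an average of 0.25 ± 0.031 (SE; adjusted p = 0.000661). ACSS2, which activates acetate, averaged 0.13 ± 0.036, adjusted p = 0.0473, and passed, of the fits that leave out 1 library, only without GSK343 replicate 3 or GSK343+XL413 replicate 2 (largest adjusted p 0.13 in the others); its adjusted p was 0.0575 with DESeq2 and 0.0527 with RLE scaling. FASN, the fatty acid synthase, did not pass (-0.13 ± 0.056, adjusted p = 0.198).

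The start regions of 2 genes of this group are shown because they hold letters of the sterol element, the site through which SREBP proteins act. They are the 250 bases before the start from RefSeq, build GRCh38.p14: SREBF2 at chr22:41832855-41833104, plus strand, and INSIG1 at chr7:155297628-155297877, plus strand. Capitals mark CACNCCAC or its reverse complement, which begins 132 bases before the start in SREBF2 and 208 in INSIG1.
SREBF2: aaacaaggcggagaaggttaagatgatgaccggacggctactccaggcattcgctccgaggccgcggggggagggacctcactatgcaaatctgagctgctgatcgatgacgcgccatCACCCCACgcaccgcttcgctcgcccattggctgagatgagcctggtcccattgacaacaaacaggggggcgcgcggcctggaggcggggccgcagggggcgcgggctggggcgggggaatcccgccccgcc
INSIG1: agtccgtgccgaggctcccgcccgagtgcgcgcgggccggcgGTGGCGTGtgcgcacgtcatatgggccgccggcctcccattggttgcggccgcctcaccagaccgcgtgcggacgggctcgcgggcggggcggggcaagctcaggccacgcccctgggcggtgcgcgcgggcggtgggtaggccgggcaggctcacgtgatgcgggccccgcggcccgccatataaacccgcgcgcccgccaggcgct
CACNCCAC on either strand was present in 5.87% of 35116 windows of 300 bases, 250 before and 50 after each start. It was found in 2 of 16 cholesterol enzymes with a window, IDI1 and SC5D, both among the 11 called with a window, and in 3 of 14 genes of the sensing group, SREBF2, INSIG1 and ABCA1, of which ABCA1 was lower. CCAAT on either strand, the letters of the site of factor NF-Y, was present in 34.6% of all windows and in 13 of the 16 enzymes, 10 of which were among the 11 called. Some genes have several windows, so shares of genes and of windows are not on the same base, and a match is a description of letters.

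Many heat shock genes were lower. Of 18 tested, 10 fell, 0 rose and 8 gave no call, against 3.37% of all tested genes called lower. The count was also 10 without GSK343+XL413 replicate 2, but 6 without GSK343 replicate 1, DMSO replicates 2 and 3 or XL413 replicates 1 and 2, and it was 5 with upper quartile scaling. The median was -0.11, and -0.09 with upper quartile scaling. HSPA1A, the stress-inducible HSP70, had 105, 104 and 106 CPM in the GSK343 libraries, against 146, 143 and 140.3 CPM in the DMSO libraries. It had 93.5, 98.2 and 98.8 CPM in the GSK343+XL413 libraries, against 121, 116 and 129 CPM in the XL413 libraries. Its neighbour HSPA1B, which encodes the same protein, had 90.5, 93.2 and 91.7 CPM in the GSK343 libraries, against 127, 127 and 125 CPM in the DMSO libraries. It had 84.2, 86.9 and 73.5 CPM in the GSK343+XL413 libraries, against 109.6, 113 and 99.2 CPM in the XL413 libraries. All 6 libraries with GSK343 lay below all 6 without it for each gene. The averages were -0.39 ± 0.032 (SE; adjusted p = 1.44e-05) for HSPA1A and -0.43 ± 0.043 (SE; adjusted p = 0.000105) for HSPA1B, and since their sequences are nearly identical, the division of reads between them is uncertain. DNAJB1, the HSP40 partner that starts their cycle, had 189 to 197 CPM (median 192) in the 6 libraries with GSK343, against 205 to 228 CPM (median 222) in the 6 without. It averaged -0.19 ± 0.025 (SE; adjusted p = 0.000819). HSPA8, the constitutive HSP70, had 2656 to 2796 CPM (median 2734) in the 6 libraries with GSK343, against 2863 to 3018 CPM (median 2943) in the 6 without, again with no overlap, and averaged -0.11 ± 0.018 (SE; adjusted p = 0.00436), or 0.927-fold (95% confidence interval 0.900 to 0.954). HSPH1, an exchange factor of HSP70, averaged -0.15 ± 0.027, adjusted p = 0.0066, and DNAJA1, another HSP40, -0.12 ± 0.025, adjusted p = 0.0136. HSF1, the factor that drives these genes, averaged -0.15 ± 0.034, adjusted p = 0.0252, and lost its call without GSK343 replicates 1 and 2, DMSO replicates 2 and 3 or XL413 replicates 1 and 2 (largest adjusted p 0.0666). Chaperones of the endoplasmic reticulum, which answer to another stress pathway, had 0 calls among 18 tested (1 higher and 1 lower without GSK343+XL413 replicate 2, 1 higher with the GC and length correction), with a median of -0.01 (0.02 with upper quartile scaling). CALR, a calcium-binding chaperone there, averaged -0.02 ± 0.026, adjusted p = 0.745, or 0.989-fold (95% confidence interval 0.948 to 1.03), and HSP90B1, its HSP90, averaged -0.004 ± 0.021, adjusted p = 0.932, or 0.997-fold (95% confidence interval 0.964 to 1.03).

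Many amino acid genes driven by ATF4 were also lower. Of 29 tested of 30, 13 fell, 1 rose and 15 gave no call, against 3.37% of all tested genes lower and 3.18% higher, with a median of -0.13. Without GSK343+XL413 replicate 2 17 were lower and 1 higher. The count of lower genes was 9 without GSK343 replicate 1 or XL413 replicates 1 and 2. In the serine pathway, PSAT1, the aminotransferase, had 315, 312 and 309 CPM in the GSK343 libraries, against 393, 395 and 389 CPM in the DMSO libraries. It had 298, 314 and 294 CPM in the GSK343+XL413 libraries, against 349, 349 and 362 CPM in the XL413 libraries. Every library with GSK343 lay below every library without it, and the average was -0.28 ± 0.025 (SE; adjusted p = 2.88e-05), or 0.824-fold (95% confidence interval 0.793 to 0.857). PHGDH, the first enzyme of that pathway, had 285 to 317 CPM (median 291) in the 6 libraries with GSK343, against 322 to 351 CPM (median 335) in the 6 without. It averaged -0.18 ± 0.028 (SE; adjusted p = 0.00216). MTHFD2, a mitochondrial folate enzyme, averaged -0.17 ± 0.024, adjusted p = 0.00184, PYCR1, of proline synthesis, -0.16 ± 0.029, adjusted p = 0.00743, and CBS, the entry of transsulfuration, -0.32 ± 0.043, adjusted p = 0.000982. ASNS, the asparagine synthetase, had 116 to 129 CPM (median 127) in the 6 libraries with GSK343, against 133 to 155 CPM (median 143) in the 6 without, with no overlap, and averaged -0.21 ± 0.029 (SE; adjusted p = 0.00117). Among transporters, SLC1A5, which carries glutamine, had 313 to 349.5 CPM (median 328) in the 6 libraries with GSK343, against 365 to 414 CPM (median 384) in the 6 without. It averaged -0.24 ± 0.030 (SE; adjusted p = 0.000661). SLC7A5, which carries large neutral amino acids, averaged -0.20 ± 0.039, adjusted p = 0.0121. SLC6A9, a glycine carrier among the largest falls of all, had 8.46 to 12.9 CPM (median 10.5) in the 6 libraries with GSK343, against 12.6 to 15.8 CPM (median 13.6) in the 6 without. It averaged -0.43 ± 0.054 (SE; adjusted p = 0.000661). The member that rose was STC2, a secreted glycoprotein, with 0.16 ± 0.039, adjusted p = 0.0279, and it lost its call without GSK343 replicates 1 and 2, DMSO replicates 2 and 3 or XL413 replicates 1 and 2 (largest adjusted p 0.0831). ATF4 itself averaged -0.07 ± 0.031, adjusted p = 0.175 with all libraries and had an adjusted p of 0.0231 without GSK343+XL413 replicate 2, and DDIT3, a stress factor induced with it, did not pass (0.08 ± 0.054, adjusted p = 0.423).

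Several enzymes that load amino acids onto tRNA fell. Of 20 cytosolic synthetases, 9 were called lower and 0 higher, against 3.37% of all tested genes lower, with a median of -0.10. The count was 5 without GSK343 replicate 1, DMSO replicate 1 or XL413 replicates 1 and 2 but 14 without GSK343+XL413 replicate 2, and 5 with upper quartile scaling. YARS, for tyrosine, had 277, 280.01 and 279 CPM in the GSK343 libraries, against 325, 326 and 324 CPM in the DMSO libraries. It had 274, 272 and 272 CPM in the GSK343+XL413 libraries, against 309, 314 and 313 CPM in the XL413 libraries. No library with GSK343 reached the lowest library without it, and the average was -0.21 ± 0.021 (SE; adjusted p = 0.000105). MARS, for methionine, averaged -0.19 ± 0.025, adjusted p = 0.000761, GARS, for glycine, -0.17 ± 0.024, adjusted p = 0.00104, AARS, for alanine, -0.18 ± 0.031, adjusted p = 0.00505, and CARS, for cysteine, -0.19 ± 0.036, adjusted p = 0.00851. In 12 of the 20 the libraries with GSK343 lay below those without it in each background, against 5.24% of all tested genes.

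The start regions of HSPA8 and ASNS are shown because each holds the letters of the element named for its group, the heat shock element bound by HSF1 and the amino acid response element bound by ATF4. HSPA8 lies at chr11:123062137-123062386, minus strand, and ASNS at chr7:97872409-97872658, minus strand (GRCh38.p14, 250 bases before the start, from RefSeq). Capitals mark the heat shock element in HSPA8, 230 and 55 bases before the start, and the amino acid response element in ASNS, 68 bases before it.
HSPA8: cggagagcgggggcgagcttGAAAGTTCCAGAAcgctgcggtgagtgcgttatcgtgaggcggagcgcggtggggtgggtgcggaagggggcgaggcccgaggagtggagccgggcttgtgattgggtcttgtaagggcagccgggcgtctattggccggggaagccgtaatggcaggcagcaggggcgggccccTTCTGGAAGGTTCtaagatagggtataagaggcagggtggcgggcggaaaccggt
ASNS: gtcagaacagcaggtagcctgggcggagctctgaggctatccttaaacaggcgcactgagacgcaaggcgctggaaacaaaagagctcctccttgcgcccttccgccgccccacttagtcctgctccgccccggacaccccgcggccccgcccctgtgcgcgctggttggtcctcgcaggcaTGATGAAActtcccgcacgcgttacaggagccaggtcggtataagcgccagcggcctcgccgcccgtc
The heat shock element searched was GAA, TTC and GAA, or TTC, GAA and TTC, with 2 free bases between the units, on either strand. It was present in 0.49% of all windows and in 6 of 16 heat shock genes with a window, 4 of which were among the 9 called with a window. TGATGNAA on either strand was present in 3.62% of all windows, in 7 of 23 ATF4 genes with a window, 2 of which were among the 11 called with a window, and in 5 of 12 synthetases, 2 of which were among the 4 called with a window. HSPA8 also holds a match to the sterol letters, 181 bases before the start.

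**Figure D4:**
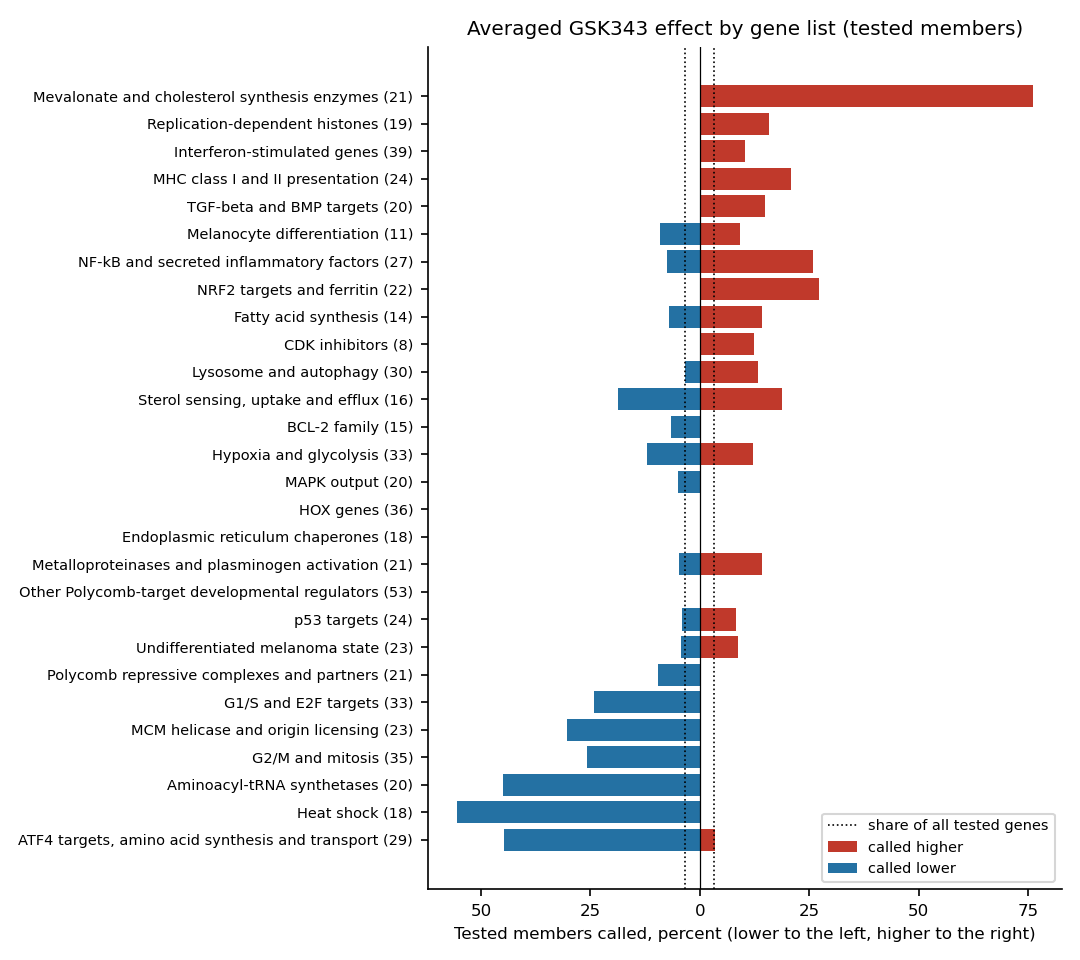
Share of tested members called under the averaged GSK343 effect (percent, horizontal axis; lower in blue to the left, higher in red to the right) for each gene list, with the number of tested members in parentheses and the share of all tested genes dotted. Cholesterol synthesis enzymes stand at 16 of 21 higher, and heat shock, ATF4 and synthetase lists at 10 of 18, 13 of 29 and 9 of 20 lower.

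Some genes of DNA replication and division were lower by small amounts. Of 23 tested genes of the MCM helicase and origin licensing, 7 fell and 0 rose, against 3.37% of all tested genes lower, with a median of -0.08 (10 without GSK343+XL413 replicate 2; 4 without GSK343 replicate 1 or DMSO replicate 2). MCM2, MCM4, MCM5 and MCM7 are subunits of the replicative helicase, and MCM2 and MCM4 are substrates of CDC7. MCM4 had 396, 396 and 398 CPM in the GSK343 libraries, against 432, 439 and 435 CPM in the DMSO libraries. It had 436, 426 and 438 CPM in the GSK343+XL413 libraries, against 476, 465 and 466 CPM in the XL413 libraries. Libraries with GSK343 lay below those without it within each background, and the libraries overlapped across the backgrounds. The averages were -0.17 ± 0.034, adjusted p = 0.011 for MCM2, -0.13 ± 0.021, adjusted p = 0.00472 for MCM4, -0.16 ± 0.029, adjusted p = 0.00842 for MCM5 and -0.12 ± 0.021, adjusted p = 0.0066 for MCM7.

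G1/S and E2F target genes had 8 lower and 0 higher calls among 33 tested, against 3.37% of all tested genes lower, with a median of -0.08. This count was 4 without GSK343 replicates 1 and 2, DMSO replicates 1, 2 and 3 or XL413 replicates 2 and 3, 5 without GSK343 replicate 3, GSK343+XL413 replicate 1 or XL413 replicate 1 but 15 lower and 1 higher without GSK343+XL413 replicate 2. It was 5 with upper quartile scaling and 13 with the GC and length correction. UHRF1, which keeps DNA methylation in place at the fork, had 189.8 to 222 CPM (median 204) in the 6 libraries with GSK343, against 224 to 253 CPM (median 239.7) in the 6 without. It averaged -0.21 ± 0.031 (SE; adjusted p = 0.00185). CCND3, a D-type cyclin, averaged -0.18 ± 0.030, adjusted p = 0.00485, RRM2, the small subunit of ribonucleotide reductase, -0.13 ± 0.024, adjusted p = 0.00749, and LIG1, the ligase of the lagging strand, -0.14 ± 0.029, adjusted p = 0.0155 (adjusted p = 0.058 with the GC and length correction). The G2/M list had 9 lower and 0 higher calls among 35 tested, against 3.37% of all tested genes lower, with a median of -0.09 and 1 estimate above 0. This count was 5 without GSK343 replicates 1 and 2, DMSO replicate 2 or XL413 replicate 3 but 15 without GSK343+XL413 replicate 2. It was 6 with upper quartile scaling and 16 with the GC and length correction. MYBL2, a transcription factor of G2/M genes, had 174, 182 and 183 CPM in the GSK343 libraries, against 204, 208 and 211 CPM in the DMSO libraries. It had 174, 175 and 177 CPM in the GSK343+XL413 libraries, against 214, 204 and 206 CPM in the XL413 libraries. Every library with GSK343 was below every library without it, and the average was -0.23 ± 0.025 (SE; adjusted p = 0.000241). PLK1, the mitotic kinase, had 223 to 232 CPM (median 229.9) in the 6 libraries with GSK343, against 252 to 263 CPM (median 259) in the 6 without. It averaged -0.17 ± 0.023 (SE; adjusted p = 0.000846). AURKA, another mitotic kinase, averaged -0.12 ± 0.021, adjusted p = 0.00552, and CDC20, which activates the ligase that starts anaphase, -0.15 ± 0.027, adjusted p = 0.00714. Other central members gave no call: CDK1, the mitotic kinase itself, averaged -0.01 ± 0.032, adjusted p = 0.915, and CCNB1, its cyclin, -0.001 ± 0.026, adjusted p = 0.986. CCNA1, a cyclin best known from the germ line, was among the largest rises, with 5.89 to 8.58 CPM (median 6.47) in the 6 libraries with GSK343, against 3.54 to 5.01 CPM (median 4.51) in the 6 without. Its average was 0.64 ± 0.083 (SE; adjusted p = 0.00078).

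Histone genes had 3 calls higher and 0 lower among 19 tested of 24, against 3.18% of all tested genes higher (2 without GSK343+XL413 replicate 2), and since the library was made from poly-A RNA these values cover the polyadenylated part of their transcripts. They were HIST1H2AC (0.30 ± 0.068, adjusted p = 0.0219), HIST1H2BD (0.33 ± 0.087, adjusted p = 0.0383) and HIST1H1C (0.22 ± 0.062, adjusted p = 0.0492), which encode an H2A, an H2B and a linker histone; histone genes are close copies, so the division of reads among them is uncertain. HIST1H2AC lost its call without GSK343 replicates 1 and 2, DMSO replicate 3 or XL413 replicates 1 and 2 (largest adjusted p 0.0619), HIST1H2BD passed, of the fits that leave out 1 library, only without GSK343+XL413 replicate 2 or DMSO replicate 1 (largest adjusted p 0.0939 in the others), and HIST1H1C passed, of the fits that leave out 1 library, only without GSK343 replicate 3 (largest adjusted p 0.124 in the others). The list count was 1 without GSK343+XL413 replicates 1 and 3, DMSO replicate 2 or XL413 replicate 3 but 0 without GSK343 replicates 1 and 2, DMSO replicate 3 or XL413 replicates 1 and 2. Of 8 CDK inhibitors 1 rose and 0 fell, against 3.18% and 3.37% of all tested genes (1 and 1 without GSK343+XL413 replicate 2 and with DESeq2). The member that rose was CDKN1C, which encodes p57 and is silenced by Polycomb in several cell types. CDKN1C had 22.9, 22.002 and 18.6 CPM in the GSK343 libraries, against 15.4, 15.2 and 16.1 CPM in the DMSO libraries. It had 17.98, 20.6 and 17.7 CPM in the GSK343+XL413 libraries, against 14.8, 15.5 and 13.5 CPM in the XL413 libraries. Every library with GSK343 was above every one without it, and the average was 0.40 ± 0.061 (SE; adjusted p = 0.00222), or 1.32-fold (95% confidence interval 1.199 to 1.46). CDKN1A, the p53-induced inhibitor, did not pass (0.02 ± 0.030, adjusted p = 0.708). Of 24 p53 targets 2 rose and 1 fell, against 3.18% and 3.37% of all tested genes (2 and 3 without GSK343+XL413 replicate 2, 3 and 2 with the GC and length correction). GDF15, a stress-induced cytokine, had 14.5 to 17.9 CPM (median 16.1) in the 6 libraries with GSK343, against 9.78 to 11.7 CPM (median 11.4) in the 6 without. It averaged 0.54 ± 0.060 (SE; adjusted p = 0.000241). POLH, a translesion polymerase, averaged -0.24 ± 0.048, adjusted p = 0.0111, and SESN1, a nutrient sensor, 0.21 ± 0.047, adjusted p = 0.0226; SESN1 lost its call without GSK343 replicates 1 and 2, GSK343+XL413 replicate 1, DMSO replicates 1 and 2 or XL413 replicates 1 and 2 (largest adjusted p 0.0712). Of 15 tested BCL-2 family genes 0 rose and 1 fell, against 3.18% and 3.37% of all tested genes (2 lower without GSK343+XL413 replicate 2 and with the GC and length correction). The called gene was BCL2L1, which encodes the survival protein BCL-XL, with -0.14 ± 0.026, adjusted p = 0.00778.

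Secreted factors held several of the largest rises. Of 27 tested NF-kB and inflammatory genes, 7 rose and 2 fell, against 3.18% and 3.37% of all tested genes (7 and 0 with upper quartile scaling, 8 and 3 without GSK343+XL413 replicate 2). The counts were 4 higher and 0 lower without GSK343 replicate 1, DMSO replicate 2 or XL413 replicate 2 but 5 higher and 0 lower without DMSO replicate 3 or XL413 replicate 1. PTGES, which makes prostaglandin E2, had 14.96, 13.7 and 13.8 CPM in the GSK343 libraries, against 7.299, 8.59 and 7.26 CPM in the DMSO libraries. It had 14.3, 13.6 and 14.4 CPM in the GSK343+XL413 libraries, against 8.78, 8.82 and 8.13 CPM in the XL413 libraries. All libraries with GSK343 lay above all without it, and the average was 0.79 ± 0.054 (SE; adjusted p = 6.11e-06), or 1.74-fold (95% confidence interval 1.59 to 1.89). IL24, an interleukin-10 family cytokine, had 26.6, 24.1 and 23.9 CPM in the GSK343 libraries, against 17.2, 16.2 and 14.9 CPM in the DMSO libraries. It had 21.8, 21.9 and 22.1 CPM in the GSK343+XL413 libraries, against 14.1, 14.6 and 13.2 CPM in the XL413 libraries. Here too no libraries overlapped, and the average was 0.64 ± 0.047 (SE; adjusted p = 6.59e-06). IL11, an interleukin-6 family cytokine, averaged 0.29 ± 0.039, adjusted p = 0.000982, and CXCL8, the neutrophil chemokine, 0.18 ± 0.037, adjusted p = 0.0131 (adjusted p = 0.0788 with the GC and length correction). The members that fell were TNFAIP2 (-0.14 ± 0.037, adjusted p = 0.0448) and NFKB2 (-0.09 ± 0.026, adjusted p = 0.0488); TNFAIP2 passed, of the fits that leave out 1 library, only without GSK343 replicates 2 and 3 or GSK343+XL413 replicate 2 (largest adjusted p 0.118 in the others), and NFKB2 passed, of the fits that leave out 1 library, only without GSK343+XL413 replicate 2 (largest adjusted p 0.116 in the others).

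Among 21 tested genes of metalloproteinases and plasminogen activation, 3 rose and 1 fell, against 3.18% and 3.37% of all tested genes (4 and 1 without GSK343+XL413 replicate 2), with a median of -0.01 (0.01 with upper quartile scaling). MMP3, stromelysin 1, had the largest rise of all genes that the naming rule admitted: 16.1, 14.96 and 13.9 CPM in the GSK343 libraries, against 8.57, 9.07 and 6.96 CPM in the DMSO libraries. It had 18.9, 17.8 and 17.8 CPM in the GSK343+XL413 libraries, against 10.2, 10.2 and 10.02 CPM in the XL413 libraries. No library with GSK343 was as low as the highest without it, and the average was 0.86 ± 0.062 (SE; adjusted p = 6.59e-06), or 1.81-fold (95% confidence interval 1.64 to 1.998). MMP1, the interstitial collagenase beside it on chromosome 11, had 14.8 to 23.04 CPM (median 19.7) in the 6 libraries with GSK343, against 11.8 to 16.7 CPM (median 14.3) in the 6 without; it was higher within each background and averaged 0.41 ± 0.046 (SE; adjusted p = 0.000258). MMP13, another collagenase of that cluster, averaged 0.52 ± 0.14, adjusted p = 0.0394, and passed, of the fits that leave out 1 library, only without GSK343 replicate 2 or GSK343+XL413 replicate 2 (largest adjusted p 0.101 in the others). MMP14, a membrane-bound enzyme, averaged -0.11 ± 0.029, adjusted p = 0.0392; it passed, of the fits that leave out 1 library, only without GSK343+XL413 replicates 2 and 3 (largest adjusted p 0.0952 in the others), and its adjusted p was 0.0999 with upper quartile scaling and 0.276 with the GC and length correction. The list had 2 higher and 0 lower without GSK343 replicates 1 and 3, GSK343+XL413 replicate 1, DMSO replicates 1, 2 and 3 or XL413 replicates 1, 2 and 3.

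Most estimates for interferon and antigen presentation genes were above 0. Of 39 tested interferon-stimulated genes 4 rose and 0 fell, against 3.18% of all tested genes higher, and 34 of 39 estimates were above 0, with a median of 0.19. The count was 7 without XL413 replicate 3 but 8 without GSK343+XL413 replicate 2. It was 7 with DESeq2 and 6 with the GC and length correction. OAS1, which senses double-stranded RNA, had 7.87 to 9.796 CPM (median 9.23) in the 6 libraries with GSK343, against 5.48 to 8.02 CPM (median 6.59) in the 6 without. It averaged 0.46 ± 0.088 (SE; adjusted p = 0.00993). Its libraries did not overlap against DMSO and overlapped against XL413. HERC5, the ISG15 ligase, averaged 0.39 ± 0.080, adjusted p = 0.0137, ISG20, an exonuclease, 0.22 ± 0.040, adjusted p = 0.00798, and IFI44 0.19 ± 0.046, adjusted p = 0.0329; IFI44 lost its call without GSK343 replicates 1 and 3, GSK343+XL413 replicate 1, DMSO replicates 1 and 3 or XL413 replicates 1 and 2 (largest adjusted p 0.0927). Of 24 tested presentation genes 5 rose and 0 fell, against 3.18% of all tested genes higher, with a median of 0.11 (7 called without GSK343+XL413 replicate 2 and 9 with the GC and length correction); the count was 3 without GSK343 replicates 1, 2 and 3, DMSO replicate 3 or XL413 replicates 1, 2 and 3. HLA-DRA, the constant chain of HLA-DR, had 222, 209 and 196 CPM in the GSK343 libraries, against 185, 185 and 177 CPM in the DMSO libraries. It had 224, 246 and 233 CPM in the GSK343+XL413 libraries, against 193, 207 and 196 CPM in the XL413 libraries. Libraries with GSK343 lay above those without it within each background and overlapped across them, and the average was 0.22 ± 0.036 (SE; adjusted p = 0.00464). HLA-DPA1 averaged 0.16 ± 0.031, adjusted p = 0.0101, and HLA-DMA, which helps load class II peptides, 0.23 ± 0.046, adjusted p = 0.0123; its partner HLA-DMB averaged 0.21 ± 0.055, adjusted p = 0.0365 and passed, of the fits that leave out 1 library, only without GSK343+XL413 replicates 1 and 2 or DMSO replicate 2 (largest adjusted p 0.0898 in the others). HLA genes are close relatives, and reads can be divided among them by the counting. The class I gene HLA-B averaged 0.22 ± 0.057, adjusted p = 0.039 and lost its call without GSK343 replicates 1, 2 and 3, DMSO replicates 2 and 3 or XL413 replicates 1, 2 and 3 (largest adjusted p 0.11). Leukocytes carry many of these genes. Of 13 leukocyte markers 5 passed the filter, 0 were called (1 higher with the GC and length correction) and all 5 estimates were above 0, and their summed level ran from 54.5 to 60.9 CPM with GSK343 and from 50.7 to 55.0 CPM without it. The part of these markers in the presentation genes was not tested. In a bulk sample, fewer or more cells of a kind and less or more RNA per cell cannot be told apart.

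Lysosome and autophagy genes had 4 higher and 1 lower calls among 30 tested, against 3.18% and 3.37% of all tested genes (4 and 2 without GSK343+XL413 replicate 2, 6 and 0 with the GC and length correction; 3 higher and 0 lower without GSK343 replicate 1, DMSO replicate 2 or XL413 replicates 1, 2 and 3). SQSTM1, the autophagy receptor p62, had 832, 829 and 744 CPM in the GSK343 libraries, against 595, 589 and 602 CPM in the DMSO libraries. It had 819, 899.6 and 807 CPM in the GSK343+XL413 libraries, against 583, 595 and 575 CPM in the XL413 libraries. Every library with GSK343 was above every one without it, and the average was 0.48 ± 0.035 (SE; adjusted p = 6.59e-06), or 1.39-fold (95% confidence interval 1.32 to 1.47). CTSL, a lysosomal protease, averaged 0.21 ± 0.035, adjusted p = 0.00425, and WIPI1, which acts in autophagosome formation, 0.34 ± 0.059, adjusted p = 0.0048. NEU1, a lysosomal sialidase, averaged 0.17 ± 0.047, adjusted p = 0.0448 and passed, of the fits that leave out 1 library, only without GSK343+XL413 replicates 2 and 3 or DMSO replicate 1 (largest adjusted p 0.121 in the others). TFE3, a transcription factor of lysosomal genes, was the member that fell, with -0.11 ± 0.028, adjusted p = 0.0303; it lost its call without GSK343 replicate 1, GSK343+XL413 replicate 1, DMSO replicates 1 and 2 or XL413 replicates 1, 2 and 3 (largest adjusted p 0.078), and its adjusted p was 0.08 with upper quartile scaling and 0.212 with the GC and length correction. SQSTM1 is also a target of NRF2, a transcription factor of the oxidative stress response. In the NRF2 and ferritin list 6 of 22 genes rose while 0 fell, against 3.18% of all tested genes higher (3 without GSK343 replicates 1 and 2, DMSO replicates 2 and 3 or XL413 replicate 1). AKR1C2, an aldo-keto reductase, had 9.796 to 10.7 CPM (median 10.04) in the 6 libraries with GSK343, against 7.02 to 9.202 CPM (median 8.13) in the 6 without. It averaged 0.32 ± 0.050 (SE; adjusted p = 0.00243). HMOX1, the heme oxygenase, averaged 0.28 ± 0.050, adjusted p = 0.0066, AKR1C3 0.38 ± 0.080, adjusted p = 0.0155, and AKR1C1 0.41 ± 0.11, adjusted p = 0.0391. The AKR1C genes are close copies, so the division of reads among them is uncertain and their calls are not independent of each other. GCLC averaged 0.145 ± 0.038, adjusted p = 0.0389. Of the 12 fits that leave out 1 library, AKR1C1 passed in 4 (largest adjusted p 0.103 in the others) and GCLC in 2 (largest adjusted p 0.095). Other classical NRF2 targets gave no call: NQO1 averaged 0.03 ± 0.035, adjusted p = 0.661 and TXNRD1 -0.03 ± 0.034, adjusted p = 0.608.

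Hypoxia and glycolysis genes split, with 4 higher and 4 lower calls among 33 tested, against 3.18% and 3.37% of all tested genes (6 and 6 without GSK343+XL413 replicate 2, 6 and 1 with upper quartile scaling, and 9 and 1 with the GC and length correction). The counts were 2 higher and 3 lower without GSK343 replicate 1 or DMSO replicate 1, 3 higher and 2 lower without DMSO replicate 2 or XL413 replicate 1 but 2 higher and 2 lower without GSK343 replicate 2, DMSO replicate 3 or XL413 replicate 2. PFKFB4, a regulator of glycolytic flux, had 41.7 to 47.3 CPM (median 42.8) in the 6 libraries with GSK343, against 34.9 to 37.6 CPM (median 35.9) in the 6 without. It averaged 0.26 ± 0.034 (SE; adjusted p = 0.000767). ALDOC, an aldolase, averaged 0.29 ± 0.048, adjusted p = 0.00409. SLC2A1, the main glucose transporter, had 232 to 252 CPM (median 238) in the 6 libraries with GSK343, against 257 to 282 CPM (median 267) in the 6 without. It averaged -0.17 ± 0.023 (SE; adjusted p = 0.00102). PKM, the pyruvate kinase, averaged -0.08 ± 0.018, adjusted p = 0.0176 (adjusted p = 0.101 with upper quartile scaling and 0.087 with the GC and length correction).

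Of 20 tested TGF-beta and BMP targets 3 rose and 0 fell, against 3.18% of all tested genes higher (4 and 0 without GSK343+XL413 replicate 2), and 15 estimates were above 0. ID2, an inhibitor of helix-loop-helix factors, had 4.72, 4.63 and 5.15 CPM in the GSK343 libraries, against 2.94, 3.05 and 2.499 CPM in the DMSO libraries. It had 4.84, 5.39 and 4.87 CPM in the GSK343+XL413 libraries, against 3.004, 2.76 and 3.74 CPM in the XL413 libraries. It was low in every library but higher in all with GSK343 than in all without it, and it averaged 0.72 ± 0.088 (SE; adjusted p = 0.000546). Its relative ID3 averaged 0.25 ± 0.048, adjusted p = 0.0104, and FST, which binds activin, 0.25 ± 0.030, adjusted p = 0.000373. Of 11 tested melanocyte genes of 19, 1 rose and 1 fell, against 3.18% and 3.37% of all tested genes (1 and 0 with the GC and length correction). GPNMB, a melanosome and lysosome glycoprotein, had 67.97, 67.3 and 66.5 CPM in the GSK343 libraries, against 46.3, 48.5 and 46.5 CPM in the DMSO libraries. It had 70.5, 65.8 and 72.97 CPM in the GSK343+XL413 libraries, against 50.5, 49.8 and 49.7 CPM in the XL413 libraries. No libraries overlapped, and the average was 0.50 ± 0.031 (SE; adjusted p = 4.54e-06), or 1.41-fold (95% confidence interval 1.34 to 1.48). SOX10, a lineage factor, averaged -0.16 ± 0.038, adjusted p = 0.0277; it lost its call without GSK343 replicates 1 and 3, DMSO replicates 2 and 3 or XL413 replicates 1 and 2 (largest adjusted p 0.0773), and its adjusted p was 0.0767 with the GC and length correction. MITF, the melanocyte master factor, did not pass (0.09 ± 0.041, adjusted p = 0.198). Of 23 tested genes of the undifferentiated melanoma state, 2 rose and 1 fell, against 3.18% and 3.37% of all tested genes (3 and 4 without GSK343+XL413 replicate 2, 2 and 3 with DESeq2). The counts were 1 and 0 without GSK343 replicate 1, DMSO replicates 1 and 2 or XL413 replicates 2 and 3. TGFBI, a matrix protein, averaged 0.17 ± 0.030, adjusted p = 0.0048, ANKRD1, a YAP target, 0.30 ± 0.070, adjusted p = 0.0242, and AXL, a receptor kinase, -0.13 ± 0.035, adjusted p = 0.046. ANKRD1 lost its call without GSK343 replicate 1, DMSO replicates 1 and 2 or XL413 replicates 2 and 3 (largest adjusted p 0.0729), and AXL passed, of the fits that leave out 1 library, only without GSK343 replicate 3 or GSK343+XL413 replicate 2 (largest adjusted p 0.117 in the others); for AXL the adjusted p was 0.0938 with upper quartile scaling and 0.204 with the GC and length correction. In the MAPK output list, the readout of BRAF signalling, 0 of 20 rose and 1 fell, against 3.18% and 3.37% of all tested genes (2 higher and 2 lower without GSK343+XL413 replicate 2, 2 lower without GSK343 replicate 3 and with RLE scaling, 3 lower with DESeq2, and 2 higher and 1 lower with the GC and length correction). The called member was EPHA2, an ephrin receptor, with -0.19 ± 0.034, adjusted p = 0.00676. DUSP6, the usual reporter of this pathway, averaged 0.01 ± 0.024, adjusted p = 0.905.

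The other large changes fell outside these groups. Among the rises, PCSK1, a protease that cuts prohormones, had 4.47, 4.31 and 3.88 CPM in the GSK343 libraries, against 2.76, 1.69 and 1.99 CPM in the DMSO libraries. It had 5.301, 3.995 and 5.13 CPM in the GSK343+XL413 libraries, against 3.12, 2.92 and 2.93 CPM in the XL413 libraries. FGFBP1, a carrier of fibroblast growth factors, had 2.84, 2.96 and 3.13 CPM in the GSK343 libraries, against 2.33, 2.19 and 1.57 CPM in the DMSO libraries. It had 3.503, 3.94 and 3.495 CPM in the GSK343+XL413 libraries, against 1.87, 2.12 and 2.08 CPM in the XL413 libraries. Both were low genes with no overlap between libraries with and without GSK343, and they averaged 0.83 ± 0.11 (SE; adjusted p = 0.00115) and 0.70 ± 0.10 (SE; adjusted p = 0.00157). Among the falls, SENP3-EIF4A1, a readthrough transcript of neighbouring genes, had 1.11 to 3.33 CPM (median 2.17) in the 6 libraries with GSK343, against 3.798 to 5.63 CPM (median 4.29) in the 6 without. It averaged -1.02 ± 0.19 (SE; adjusted p = 0.00822). Its parent genes SENP3 (-0.06 ± 0.026, adjusted p = 0.184) and EIF4A1 (0.03 ± 0.024, adjusted p = 0.57) did not pass, and reads of the readthrough can be divided among all of these by the counting. GJA5, a gap junction protein, averaged -0.35 ± 0.068, adjusted p = 0.0113, the pseudogene ZNF767P -0.32 ± 0.055, adjusted p = 0.00494, and PPME1, a methylesterase of phosphatase PP2A, -0.32 ± 0.029, adjusted p = 3.21e-05. PPME1 had 166, 171 and 169 CPM in the GSK343 libraries, against 208, 212 and 205 CPM in the DMSO libraries. It had 180.2, 165 and 182 CPM in the GSK343+XL413 libraries, against 221, 220.3 and 223 CPM in the XL413 libraries. The libraries did not overlap, and PPME1 was not in any list.

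**Figure D5:**
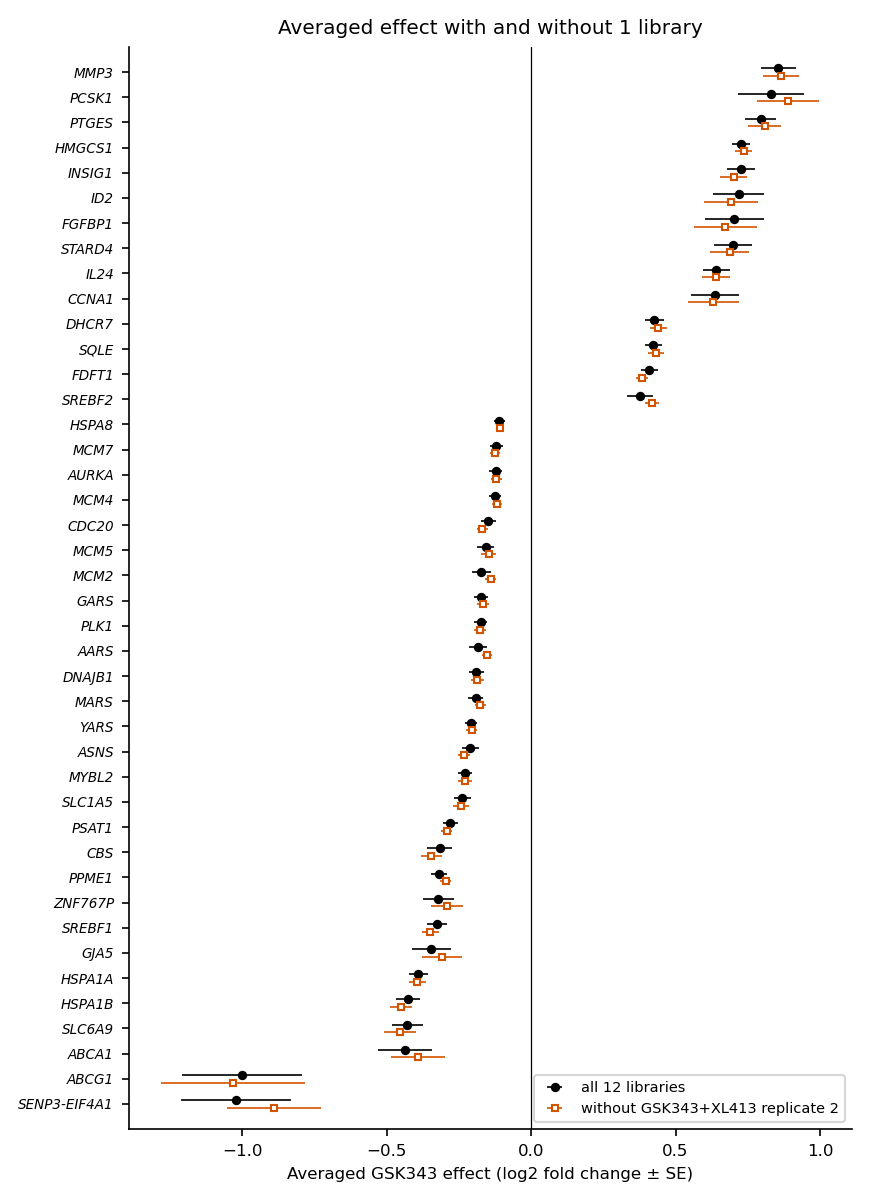
Averaged GSK343 effect (log2 fold change ± SE, horizontal axis) with all 12 libraries (filled points) and without GSK343+XL413 replicate 2 (open squares), for the genes with the largest changes and members of the main lists. Each gene keeps its sign, and HMGCS1 is at 0.73 with all libraries and 0.74 without that library.

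Epithelial markers had 1 lower call among 7 tested of 12, against 3.37% of all tested genes (2 lower without GSK343+XL413 replicate 2 and with the GC and length correction). The called gene was KRT18 (-0.11 ± 0.028, adjusted p = 0.0355), which passed, of the fits that leave out 1 library, only without GSK343+XL413 replicate 2 (largest adjusted p 0.0878 in the others). Summed levels of this list were 593 to 676 CPM with GSK343 and 650.3 to 692 CPM without it. Fibroblast markers had 1 higher and 0 lower calls among 11 tested of 12, against 3.18% of all tested genes higher (0 and 0 without GSK343+XL413 replicate 2 and with the GC and length correction, 0 and 1 with DESeq2, and 0 and 2 without GSK343 replicate 1). The called gene was LUM (0.24 ± 0.065, adjusted p = 0.0468), which passed in none of the 12 fits that leave out 1 library (largest adjusted p 0.113). Summed levels of this list were 166 to 249 CPM with GSK343 and 227 to 294 CPM without it. No marker of either list was at 0 in all libraries, and their part in the results was not tested.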

How the data were processed

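The authors deposited 1 table of RSEM expected counts, estimated reads per gene and library that are not scaled between libraries. Per the submitters' processing notes they used Bowtie2 2.1.0, RSEM 1.2.15 and build hg38; not given in the sources used here were the annotation, the strand setting and read filters. Reads that match several genes are divided by RSEM, so close paralogs and readthrough genes are uncertain. Groups came from the labels.

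The expected counts were rounded for edgeR 4.0.16 under R 4.3.3. Genes passed filterByExpr by group (counts of at least 10, total of at least 15), libraries were scaled by TMM, and all 12 entered 1 quasi-likelihood fit with 1 coefficient for each group (8 residual degrees of freedom). The contrast was the mean of GSK343 minus DMSO and GSK343+XL413 minus XL413. Two-sided p-values were adjusted by Benjamini and Hochberg over all tested genes, and calls were made at an adjusted p under 0.05. SEs are log2 fold changes, unsigned, over the square root of F, and 95% intervals use the residual degrees of freedom. On simulated data of 15309 genes for the averaged effect, 44 of 100 genes changed by 0.25 log2 and 78 of 100 changed by 0.5 were called, and 5 of 127 calls were unchanged genes. The simulated counts were drawn independently around the mean of each gene, with no library that stands apart and no length trend. These rates therefore need not hold for the measured libraries.

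The comparison and the 33 gene lists were chosen with earlier results of these data known. Named genes are the targets and partners, the 10 largest rises and 10 largest falls among called genes whose mean reached 1 log2 CPM, with a proper symbol and libraries that did not overlap in either background, up to 4 called members of each list with the smallest p (or the 2 most abundant of a list with none), and the 5 genes with the smallest p for the difference between backgrounds. Any other gene, among them FASN, ATF4 and further list members, was named after its values were seen. Some list members are not reported here by name. Lengths and GC content came from the longest transcript in GENCODE 29, which covered 96.8% of tested genes: of 26473 distinct names 23872 matched directly, 709 through an older symbol and 1892 did not.

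Alternatives were RLE and upper quartile scaling, no filter, a filter of 5 CPM in 3 or more libraries, limma-voom (limma 3.58.1), DESeq2 1.42.0, a GC and length correction, a replicate block, an additive model, a minimum fold of 1.2, a fit of only the groups compared, and leaving out each library in turn. A p sets a difference between groups against the spread between these libraries, and it does not measure that spread.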

Additional observations from a re-analysis of the deposited data

Results flagged for a closer look

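In 2 of the 5 genes with the smallest p for the difference between backgrounds, all 3 libraries with GSK343 lay above those without it against DMSO and all 3 lay below against XL413, although the test of the difference did not pass in edgeR. The 5 genes were picked by that same difference, so this separation follows in part from the choice and is no further support. Its share over all tested genes was not counted.

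CA9, a carbonic anhydrase induced by hypoxia, had 3.33, 2.99 and 3.48 CPM in the GSK343 libraries, against 1.42, 2.02 and 1.11 CPM in the DMSO libraries. It had 1.46, 1.38 and 1.06 CPM in the GSK343+XL413 libraries, against 1.78, 2.05 and 1.800 CPM in the XL413 libraries. Its log2 fold change was 1.10 against DMSO and -0.53 against XL413, a difference of -1.63 ± 0.28 (SE; adjusted p = 0.766). Its average of 0.29 joins estimates of opposite sign, whose difference did not pass.

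USP45, a deubiquitinase, had 11.5, 11.6 and 11.9 CPM in the GSK343 libraries, against 10.3, 10.5 and 9.21 CPM in the DMSO libraries. It had 9.61, 10.04 and 10.5 CPM in the GSK343+XL413 libraries, against 11.2, 11.5 and 11.5 CPM in the XL413 libraries. Its log2 fold change was 0.23 against DMSO and -0.18 against XL413, a difference of -0.41 ± 0.094 (SE; adjusted p = 0.989).

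In the other 3 of these genes the libraries overlapped in 1 background. TRIM34, a member of the tripartite motif family, rose in the average (0.72 ± 0.14, adjusted p = 0.0107), with 1.43 against DMSO and 0.01 against XL413; the additive model gave an adjusted p of 0.0943. LCN2, a siderophore-binding protein, had 0.53 against DMSO and -0.13 against XL413 and CEP290, a centrosome protein, 0.06 against DMSO and -0.42 against XL413. Neither average passed (adjusted p = 0.129 for LCN2 and 0.0712 for CEP290).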

How the results depend on the processing

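Signs under all alternatives were compared only for genes that the naming rule admitted. Among these, no called gene changed sign under any alternative. Estimates near 0 did: CALR was 0.007 with upper quartile scaling, EZH1 0.0059 with it and 0.0309 with the GC and length correction, with or without the replicate block, HSP90B1 0.0194 with upper quartile scaling, 0.0063 with a filter of 5 CPM and -0.0134 to 0.0012 without 1 library, DLX1 -0.0099 to 0.0288 without 1 library, and the average of USP45 -0.0079 to 0.036 without 1 library. Some list medians near 0 also changed sign with upper quartile scaling. For the averaged GSK343 effect, the GC and length correction gave 1645 calls and a minimum fold of 1.2 gave 23, against 1012, and leaving out 1 library gave 448 to 2009. The GSK343 effect without XL413 (GSK343 against DMSO) had 180 calls, and 342 with DESeq2, 453 with the GC and length correction, 422 with only the groups compared and 37 to 958 without 1 library, the lowest without DMSO replicate 3 and the highest without GSK343+XL413 replicate 2, which is not in this contrast but enters the estimate of spread. The GSK343 effect with XL413 (GSK343+XL413 against XL413) had 121 calls, and 292 with DESeq2, 325 with the GC and length correction, 18 with only the groups compared and 40 to 252 without 1 library, the lowest without XL413 replicate 1 and the highest without GSK343+XL413 replicate 2. The difference of the GSK343 effect between backgrounds had 0 calls, 2 with DESeq2 and 1 with the GC and length correction. Fits with fewer samples also have fewer residual degrees of freedom; otherwise the cause was not tested.

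Replicate numbers did not pair the libraries: same-numbered deviations correlated at -0.066, -0.208 and -0.106 for GSK343 and DMSO and at 0.128, 0.126 and 0.069 for GSK343+XL413 and XL413, and not every library correlated best with its own number. With the replicate block the averaged GSK343 effect had 837 calls, the GSK343 effect without XL413 108, and the GSK343 effect with XL413 96; with the GC and length correction and the replicate block these were 1389, 358 and 224, and the difference of the GSK343 effect between backgrounds had 1.

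Among named genes, 7 lost their call with upper quartile scaling, 11 with the GC and length correction, 3 with DESeq2, 2 with RLE scaling, 2 with limma-voom, 3 with the additive model, 1 with the filter of 5 CPM, 10 without a filter, 8 with the replicate block, 14 with the GC and length correction and the replicate block, and 79 with the minimum fold of 1.2. At this depth genes with few counts limit the smallest change that can be called.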

Other observations

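Some genes outside the lists also changed; they were chosen after their values were seen. UCA1, a long noncoding RNA of epithelial cancers, had 74.9 to 95.5 CPM (median 87.4) in the 6 libraries with GSK343, against 58.6 to 73.1 CPM (median 64.8) in the 6 without. It averaged 0.40 ± 0.029 (SE; adjusted p = 6.59e-06). NOV, a secreted matrix protein of the CCN family, had 20.7 to 22.9 CPM (median 22.5) in the 6 libraries with GSK343, against 13.8 to 16.7 CPM (median 14.5) in the 6 without. It averaged 0.58 ± 0.048 (SE; adjusted p = 1.54e-05). UCN2, the peptide urocortin 2, had 15.4 to 18.98 CPM (median 17.5) in the 6 libraries with GSK343, against 11.2 to 12.7 CPM (median 11.9) in the 6 without. It averaged 0.53 ± 0.043 (SE; adjusted p = 1.44e-05). SPP1, the secreted phosphoprotein osteopontin, had 11.5 to 13.5 CPM (median 12.1) in the 6 libraries with GSK343, against 7.11 to 8.87 CPM (median 8.07) in the 6 without. It averaged 0.61 ± 0.063 (SE; adjusted p = 0.000123). In each of these every library with GSK343 was above every library without it. CD55, which protects cells from complement, averaged 0.34 ± 0.028, adjusted p = 1.58e-05, IDH1, the cytosolic isocitrate dehydrogenase that makes NADPH, 0.30 ± 0.028, adjusted p = 4.74e-05, and NEFL, a neurofilament subunit, 0.39 ± 0.035, adjusted p = 3.13e-05. GPT2, a mitochondrial alanine aminotransferase, was lower, with 54.1 to 59.4 CPM (median 57.6) in the 6 libraries with GSK343, against 66.5 to 73.2 CPM (median 70.3) in the 6 without. Its average was -0.29 ± 0.029 (SE; adjusted p = 0.000118).

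Of the 1012 called genes 14 differed by at least 2-fold, and 13 of them had a mean under 1 log2 CPM. KRT75, a keratin of hair follicles, had 0.403 to 0.661 CPM (median 0.488) in the 6 libraries with GSK343, against 0.120 to 0.197 CPM (median 0.165) in the 6 without. It averaged 1.60 ± 0.23 (SE; adjusted p = 0.0014). GCNT3, a glycosyltransferase of mucin glycans, had 0.403 to 0.752 CPM (median 0.662) in the 6 libraries with GSK343, against 0.151 to 0.326 CPM (median 0.262) in the 6 without. It averaged 1.28 ± 0.22 (SE; adjusted p = 0.0048). LDB2, an adaptor of LIM-domain factors, had 0.130 to 0.486 CPM (median 0.287) in the 6 libraries with GSK343, against 0 to 0.121 CPM (median 0.077) in the 6 without. It averaged 2.19 ± 0.45 (SE; adjusted p = 0.0139). At such levels a library holds few reads of the gene.

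LOC102724238 and LOC554249 had reciprocal values, and each was listed at 0 where the other was not. LOC102724238 had expected counts of 91.1 and 75.5 in GSK343 replicates 2 and 3 and of 69.1, 85.3 and 67.6 in the GSK343+XL413 libraries, and was listed at 0 in GSK343 replicate 1 and in all 6 libraries without GSK343. LOC554249 had an expected count of 78.6 in GSK343 replicate 1 and was listed at 0 in the other 5 libraries with GSK343, against 76.1, 83.5 and 51.7 in the DMSO libraries and 42.0, 58.3 and 64.9 in the XL413 libraries. Since 1 library with GSK343 goes with those without it, no fold is given. Both passed the test with all libraries, and LOC554249 lost its call without GSK343+XL413 replicates 1 and 3, DMSO replicates 1, 2 and 3 or XL413 replicates 1, 2 and 3 (largest adjusted p 0.0835).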
